A study of Mus musculus with 6 samples.

Results

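The 10 genes described here make peptides and load them onto major histocompatibility complex (MHC) class I molecules, the surface proteins that show cell contents to CD8 T cells. They were taken by symbol from the annotation files: B2m, Tap1, Tap2, Tapbp, Psmb8, Psmb9, Psmb10, Psme1, Psme2 and Nlrc5. All 10 were found among the 48353 genes of the files. For each, estimated reads and RPKM (reads scaled to transcript length and library size) were summed over the transcripts of the gene in each library. They were set beside Isg15, a ubiquitin-like protein whose gene is a standard target of type I interferon, in the same library. Polyadenylated RNA of hepatocytes, isolated from C57BL/6 mouse liver by collagenase perfusion, was sequenced in 3 Bim knock-out and 3 wild-type libraries. The knock-out came from Bim lox/lox mice crossed to Alb-Cre mice, in which the albumin promoter drives Cre recombinase. Whether the wild-type animals carried lox alleles or Cre is not given in the labels. The protocol names male mice on regular chow or on a high-fat diet started at 8 to 10 weeks of age and kept for 14 to 20 weeks, and the labels do not tie a diet or an age to any library. The labels do not say whether each sample is a separate animal, and if they are not, the p-values reflect technical spread only.

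The libraries held 25335211 to 31130519 estimated reads. Bcl2l11, the gene of BIM, read 0 in each of the 3 knock-out libraries and had 0, 680 and 478 estimated reads in wild-type replicates 1, 2 and 3, so wild-type replicate 1 was not set apart from the knock-out by this gene. Its locus has 8 transcripts, and such zeros can be estimates that were not made. Of the 9 hepatocyte markers listed, 7 were above 0 in all 6 libraries. They ran from Alb, at 627500 to 1583544 reads, down to Cps1, at 3.09 to 9.17 RPKM. Tat was listed at 0 in every library, and Apoc3 had reads in wild-type replicate 2 only. Wild-type replicate 1 also held the macrophage and Kupffer cell markers: the 12 genes of that list summed to 3967 RPKM there and to 85.4 to 143.8 in the other 5 libraries. In bulk RNA, fewer cells of a type and less RNA per cell cannot be told apart.

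In class I presentation the proteasome cuts cytosolic proteins, the TAP transporter carries the peptides into the endoplasmic reticulum, and a loading complex places them on a heavy chain bound to beta-2 microglobulin. Interferon exchanges the proteolytic subunits of the proteasome for Psmb8, Psmb9 and Psmb10, which changes the peptides it releases, and the PA28 cap of Psme1 and Psme2 opens the gate of the core. NLRC5 is the transcriptional activator of many of these genes. Hepatocytes carry class I molecules at their surface, and interferon raises the pathway in them.

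The data showed 3 patterns. B2m was among the least variable genes of the series. Tap1, Tap2, Tapbp, Psmb8, Psmb9, Psmb10 and Psme1 were highest in the same 2 libraries as Isg15, of which 1 was knock-out and 1 wild-type. No member (0 of 10) passed the test between knock-out and wild-type. A further feature bears on every value below. Of the 60 member values, 18 (30%) were listed at exactly 0, and in all 18 the whole annotated locus was at 0. Over all loci whose median passed 100 reads, exact zeros made up 18.02% of the values at loci with 2 or more transcripts and 0.0156% at loci with 1. Only B2m, Tapbp and Psme1 were above 0 in all 6 libraries, and B2m was the only member at a locus with 1 transcript. An exact 0 can be an estimate that was not made, so the other 7 members are given library by library with no mean or fold of the groups.

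Isg15 (ENSMUSG00000035692, chromosome 4 from 156199424 to 156200818 on the minus strand of GRCm38) set the reference. It had 7720, 592 and 1196 estimated reads in knock-out replicates 1, 2 and 3 and 1522, 8412 and 1684 in wild-type replicates 1, 2 and 3. Knock-out replicate 1 and wild-type replicate 2 stood apart from the other 4 libraries, and the highest value in RPKM was 12.9 times the lowest. Of the 5538 tested genes above 0 in every library, 97.4% had a narrower range. Isg15 measured 208.8 ± 257.1 RPKM in the knock-out libraries and 237.6 ± 234.4 in the wild-type ones (SD, n = 3 each; exact permutation p = 0.5). Its limma difference was -0.56 on the log2(RPKM + 1) scale (95% interval -3.64 to 2.53, adjusted p = 1.0), and it turned to 0.22 without knock-out replicate 2 and to 0.21 without wild-type replicate 2. Since the libraries fell into separate clusters by Isg15, no correlation with it is given.

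**Figure D1:**
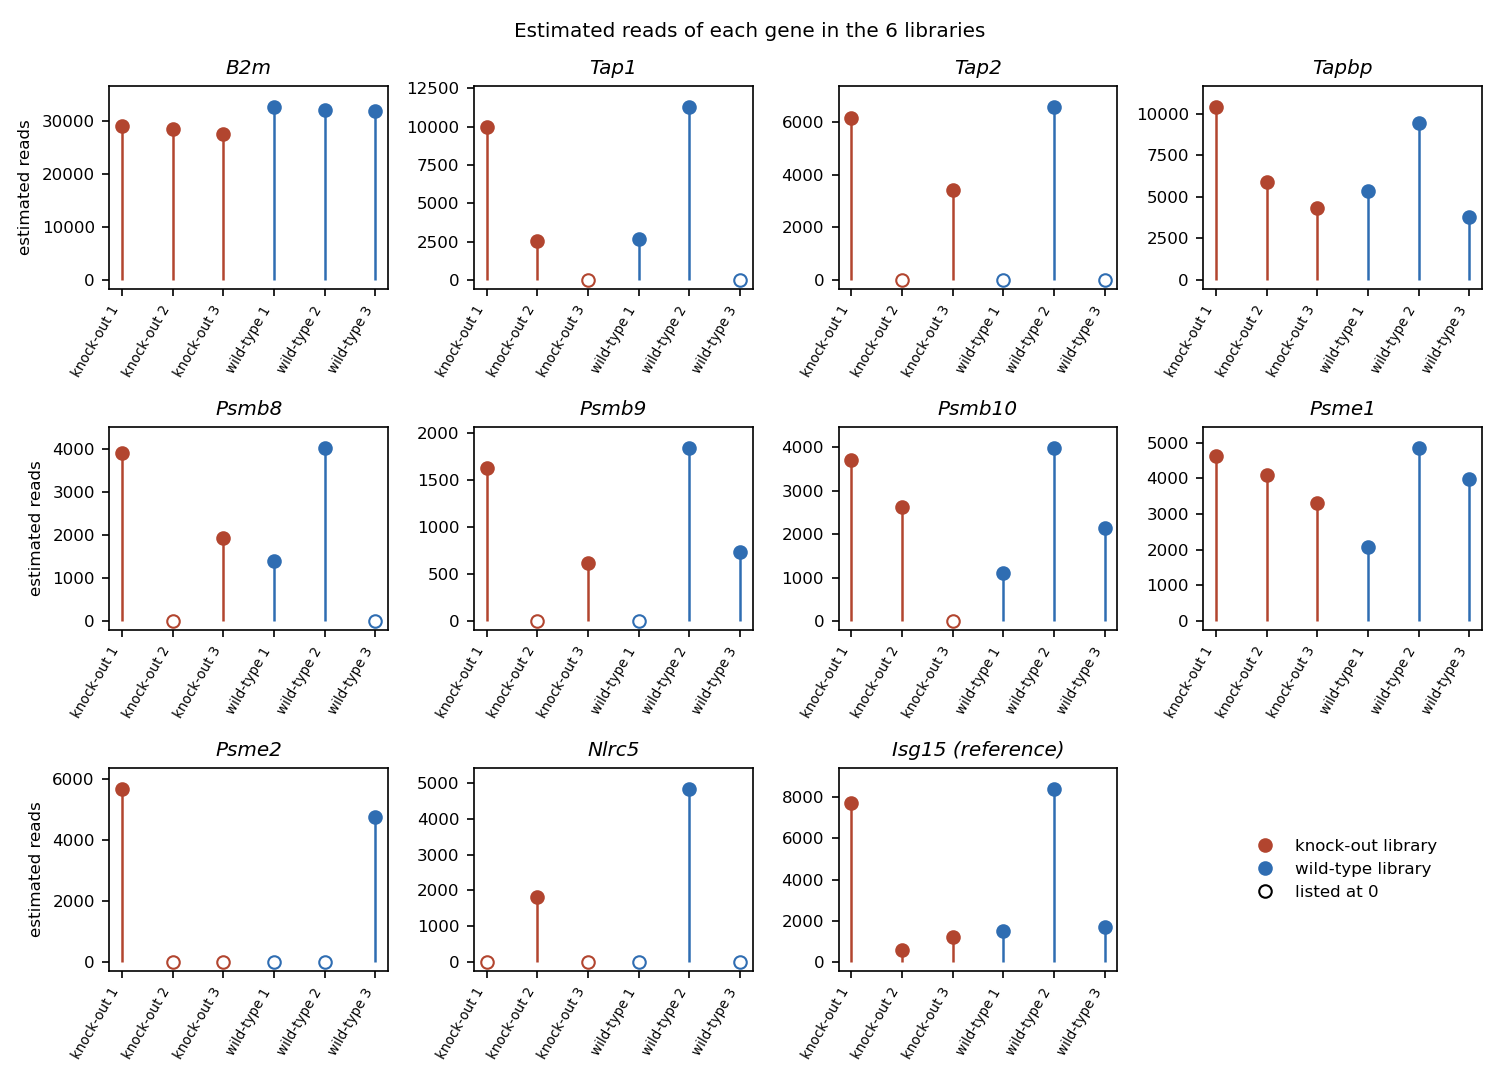
Estimated reads (vertical axis, from 0) of the 10 class I presentation genes and Isg15 in each of the 6 libraries, with open points for values listed at 0. Knock-out replicate 1 and wild-type replicate 2 were the highest for Isg15 at 7720 and 8412 reads and for 6 of the members by reads and RPKM alike, while B2m stayed between 27634 and 32732.

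Promoter sequences are printed for Isg15 and 4 members because they show how interferon-response elements are placed in genes that did and did not move with Isg15. Windows of 300 bases (250 before the start site and 50 from it, RefSeq, GRCm38.p6) were found for 8 of the 10 members. Each was searched on both strands for the core of the interferon-stimulated response element (ISRE), GAAA, NN, GAAA in a row, and for the gamma-activated sequence (GAS), TTCNNNGAA, which reads the same on both strands. Capitals mark ISRE or GAS matches. Of all 32851 promoter windows, 3.44% held an ISRE match and 8.3% a GAS match. The Isg15 window is chr4:156200769-156201068 (minus strand), B2m chr2:122147437-122147736 (plus), Psme1 chr14:55578244-55578543 (plus), Psmb8 chr17:34197945-34198244 (plus) and Tap1 chr17:34187306-34187605 (plus).
Isg15: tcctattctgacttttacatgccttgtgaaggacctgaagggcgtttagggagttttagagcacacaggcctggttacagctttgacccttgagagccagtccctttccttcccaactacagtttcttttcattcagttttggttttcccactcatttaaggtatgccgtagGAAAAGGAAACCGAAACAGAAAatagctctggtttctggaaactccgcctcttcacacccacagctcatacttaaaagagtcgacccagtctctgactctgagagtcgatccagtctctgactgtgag
B2m: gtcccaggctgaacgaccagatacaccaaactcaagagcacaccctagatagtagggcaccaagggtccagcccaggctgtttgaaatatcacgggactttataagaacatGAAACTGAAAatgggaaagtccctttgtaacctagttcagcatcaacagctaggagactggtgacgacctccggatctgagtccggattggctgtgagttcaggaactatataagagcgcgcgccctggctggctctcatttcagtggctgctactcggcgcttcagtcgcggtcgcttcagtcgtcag
Psme1: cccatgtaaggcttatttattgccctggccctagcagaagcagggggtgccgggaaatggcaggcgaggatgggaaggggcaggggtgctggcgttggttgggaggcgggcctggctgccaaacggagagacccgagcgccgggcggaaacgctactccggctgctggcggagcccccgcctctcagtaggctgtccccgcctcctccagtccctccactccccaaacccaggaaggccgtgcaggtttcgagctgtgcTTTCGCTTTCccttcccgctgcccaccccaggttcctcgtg
Psmb8: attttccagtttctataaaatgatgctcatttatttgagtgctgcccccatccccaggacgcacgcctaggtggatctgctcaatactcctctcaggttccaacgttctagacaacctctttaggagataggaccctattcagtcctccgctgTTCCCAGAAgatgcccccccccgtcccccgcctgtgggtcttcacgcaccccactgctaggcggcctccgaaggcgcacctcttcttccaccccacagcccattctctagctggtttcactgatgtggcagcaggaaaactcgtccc
Tap1: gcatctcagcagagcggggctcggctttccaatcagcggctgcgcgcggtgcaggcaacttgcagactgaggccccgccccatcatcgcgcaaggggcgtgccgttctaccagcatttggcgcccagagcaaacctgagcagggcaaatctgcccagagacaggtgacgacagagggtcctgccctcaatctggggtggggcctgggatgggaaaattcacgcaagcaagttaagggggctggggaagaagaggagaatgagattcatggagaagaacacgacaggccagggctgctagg
Isg15 held 3 ISRE matches that overlap each other, the outermost beginning 78 bases before the start site. B2m held 1 ISRE match, 139 bases before its start. The 1 match of Psme1 lay on the opposite strand, just after the start site. Psmb8 held 1 GAS match, 97 bases before its start. The windows of Tap1, Tapbp, Psmb9, Psmb10 and Psme2 held neither (0 matches). The Tap1 and Psmb9 windows shared 275 bases on opposite strands, since their start sites lie 226 bases apart and point away from each other. A match is a description of the letters and no measure of binding.

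B2m encodes beta-2 microglobulin, the invariant light chain of every class I molecule (ENSMUSG00000060802, chromosome 2 from 122147686 to 122153083, plus strand, 1 annotated transcript of 4 exons). It had 29124, 28460 and 27634 estimated reads in knock-out replicates 1, 2 and 3 and 32732, 32084 and 31874 in wild-type replicates 1, 2 and 3. Every wild-type library lay above every knock-out library. At 1670 to 1817 RPKM its highest library was 1.09 times its lowest, and only 0.397% of the 5538 genes had a smaller range. It ranked number 55 of the 48353 genes by mean RPKM.

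On the RPKM scale B2m measured 1671 ± 2.3 in the knock-out replicates, against 1775 ± 62.2 in the wild-type ones (SD, n = 3 each), and the groups did not overlap. Among the 5538 genes, the groups did not overlap in RPKM for 5.94%, with 2.96% lower in knock-out, and 12.9% were lower with no overlap in reads. The exact two-sided permutation test gave p = 0.1, the smallest it can give, and 0.5 after adjustment over the 5 values so tested. In limma the difference was -0.09 on the log2(RPKM + 1) scale (SE 0.06, 95% interval -0.25 to 0.07) with an adjusted p of 0.941. In RPM (reads scaled to the same sum in every file), B2m had 1031, 1029 and 1091 in the knock-out replicates beside 1158, 1031 and 1133 in the wild-type ones, and the groups overlapped. In RPM, 0.74% of the genes were lower in knock-out with no overlap. So the order of the groups held in RPKM and in reads, which are not scaled to library size, but not in RPM. The difference did not pass the test. In the libraries highest in Isg15, B2m stood at 1674 and 1704 RPKM, inside the range of the others.

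Over the 6 libraries, the genes with the pattern most like B2m were Cln3, Abcf1 and Tbc1d17 (Pearson r of log2(RPKM + 1) = 0.974, 0.971 and 0.968). These are the highest values among 5538 genes at n = 6 and are given as a description. Cln3, a lysosomal membrane protein, had 23.2, 19.8 and 21.4 RPKM in the knock-out replicates, against 55.8, 23.7 and 69.9 in the wild-type ones.

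**Figure D2:**
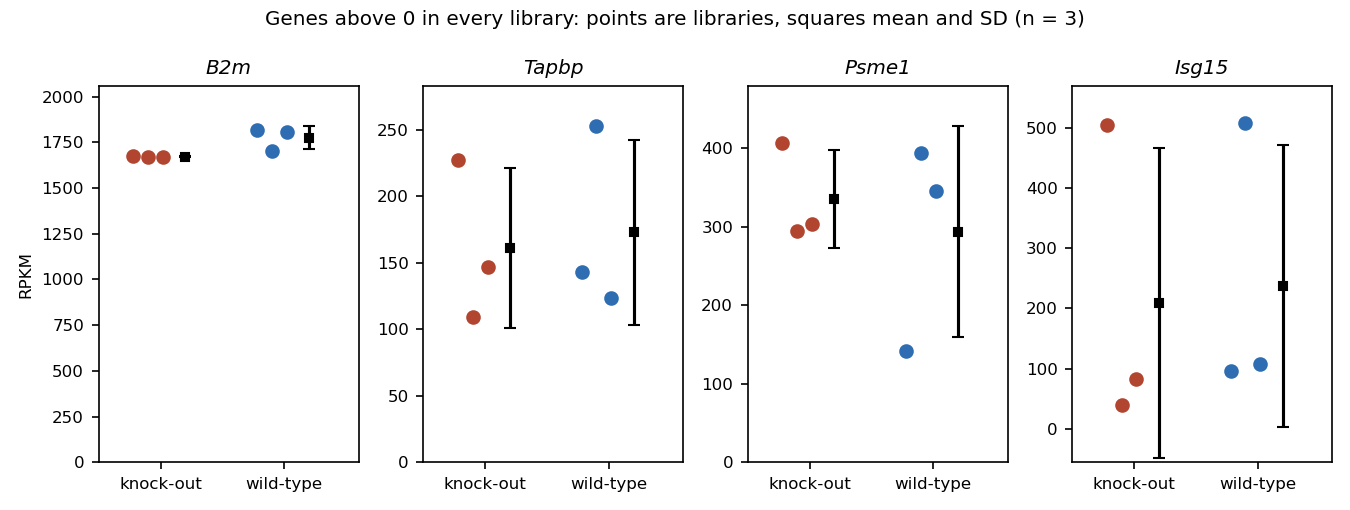
RPKM (vertical axis) of B2m, Tapbp, Psme1 and Isg15 in each library, with the mean and SD of the 3 libraries of a group as black squares and bars. B2m lay at 1671 ± 2.3 in the knock-out replicates, against 1775 ± 62.2 in the wild-type ones with no overlap, while the groups of the other 3 genes overlapped and each held 1 of the highest Isg15 libraries.

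Tap1 and Tap2 encode the paired subunits of the transporter associated with antigen processing. Tap1 (ENSMUSG00000037321, chromosome 17 from 34187553 to 34197225, plus strand) had 10000, 2566 and 0 estimated reads in knock-out replicates 1, 2 and 3 and 2692, 11292 and 0 in wild-type replicates 1, 2 and 3. Its highest library above 0 had 4.4 times the reads of its lowest above 0, the widest span of any member. Tap2 (ENSMUSG00000024339, 34203527 to 34216321, plus strand) had 6158, 0 and 3415 reads in the knock-out replicates, against 0, 6590 and 0 in the wild-type ones. Both genes were highest in knock-out replicate 1 and wild-type replicate 2, each at a similar level in these libraries of different genotype. In RPM, Tap1 stood at 354 and 363 there and Tap2 at 218 and 212.

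Tapbp encodes tapasin, which bridges the transporter and the empty class I molecule (ENSMUSG00000024308, chromosome 17 from 33915899 to 33929288, plus strand). It had 10414, 5887 and 4356 estimated reads in knock-out replicates 1, 2 and 3 and 5356, 9424 and 3782 in wild-type replicates 1, 2 and 3. The same 2 libraries were highest again, and the groups overlapped. In RPKM it measured 161.1 ± 60.1 in the knock-out replicates, against 173.1 ± 69.5 in the wild-type ones (SD, n = 3 each; exact permutation p = 0.7). The limma difference was -0.10 on the log2(RPKM + 1) scale (SE 0.40, 95% interval -1.13 to 0.93), with an adjusted p of 1.0. In RPM the Tapbp difference turned to 0.27, and it turned to 0.15 without knock-out replicate 2 and to 0.21 without wild-type replicate 2, so it has no stable direction. Its locus in the files also holds 2 transcripts outside the gene, so the assignment of its reads is less certain.

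Psmb8, Psmb9 and Psmb10 encode the inducible catalytic subunits of the immunoproteasome. Psmb8 (ENSMUSG00000024338, chromosome 17 from 34197721 to 34201454, plus strand) had 3896, 0 and 1932 estimated reads in knock-out replicates 1, 2 and 3 and 1388, 4022 and 0 in wild-type. Psmb9 (ENSMUSG00000096727, 34181988 to 34187764, minus strand) had 1626, 0 and 616 in the knock-out replicates, against 0, 1842 and 734 in the wild-type ones. Psmb10 (ENSMUSG00000031897, chromosome 8 from 105935735 to 105938444, minus strand) had 3690, 2632 and 0 in the knock-out replicates, against 1098, 3982 and 2134 in the wild-type ones. In estimated reads all 3 subunits were highest in knock-out replicate 1 and wild-type replicate 2. In RPKM this order held for Psmb8 and Psmb9. For Psmb10 the order by RPKM placed wild-type replicate 3 (160.9) above wild-type replicate 2 (138.7), since its reads in replicate 3 were assigned to a shorter transcript.

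Psme1 and Psme2 encode the alpha and beta subunits of the PA28 activator. Psme1 (ENSMUSG00000022216, chromosome 14 from 55578123 to 55581529, plus strand) had 4616, 4110 and 3306 estimated reads across the knock-out replicates, against 2090, 4860 and 3994 in wild-type replicates 1, 2 and 3. Wild-type replicate 1, the library with macrophage markers, was the lowest. Psme1 measured 334.9 ± 62.4 RPKM in the knock-out replicates, against 293.8 ± 134 in the wild-type ones (SD, n = 3 each; exact permutation p = 0.8). The limma difference of Psme1 was 0.30 (SE 0.44, 95% interval -0.84 to 1.44; adjusted p = 0.943), and it was -0.16 without wild-type replicate 1 and 2.51 on the transcript with the highest mean. Psme2 (ENSMUSG00000079197, 55587441 to 55591113, minus strand) had 5691, 0 and 0 reads in the knock-out replicates, against 0, 0 and 4753 in the wild-type ones. Its zeros included wild-type replicate 2, where Psme1 had its highest reads. The genes lie 5911 bases apart and their products form 1 ring.

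Nlrc5, the class I transactivator, was read in only 2 libraries (ENSMUSG00000074151, chromosome 8 from 94434356 to 94527272, plus strand). It had 0, 1812 and 0 estimated reads across the knock-out replicates, against 0, 4836 and 0 in the wild-type ones. The 4836 reads were assigned to the protein-coding transcript of 49 exons, and the 1812 to a transcript of 2 exons annotated as a retained intron. Nlrc5 was at 0 in knock-out replicate 1, where Isg15 had 7720 reads, so its values do not order the libraries.

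Over all genes, 87 of 11021 tested (0.789%) passed limma at an adjusted p below 0.05 between knock-out and wild-type, 0.372% higher and 0.417% lower in knock-out. With any 1 library left out the count was 182 to 207. All 10 members were tested and 0 passed, with adjusted p from 0.941 to 1.0 and 0 below an unadjusted 0.05. The median log2 difference of the 3 members above 0 everywhere was -0.09, beside 0.001 for the 5538 such genes. Among the 5538 genes above 0 in every library limma called 0, and 130 (2.35%) had an unadjusted p below 0.05. Leaving out knock-out replicate 1 and wild-type replicate 2 together, an alternative chosen after seeing the data, also called 0 members. The smallest adjusted p of any member in any of the 20 alternatives was 0.825. The 95% intervals still include ratios of knock-out to wild-type from 0.458 to 1.91 for Tapbp and from 0.560 to 2.72 for Psme1, on the scale of RPKM + 1.

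The libraries fell into one order for most members. In RPM, 7 of the 10 were highest in knock-out replicate 1 and wild-type replicate 2: Tap1, Tap2, Tapbp, Psmb8, Psmb9, Psmb10 and Psme1. In RPKM it was 6, without Psmb10. Tap1, Tap2, Psmb8, Psmb9 and Psmb10 each had exact zeros among the other libraries, and these were ranked as low values. Among all tested genes above 0 in at least 2 libraries, 590 of 9899 (5.96%) had this order in RPM. Among the 5538 genes above 0 everywhere 286 (5.16%) had it, beside 2 of the 3 members. B2m, Psme2 and Nlrc5 did not show it. Since 1 of these libraries is knock-out and the other wild-type, the order does not follow genotype.

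Hepatocyte markers moved with these libraries in part. Of the 7 tested hepatocyte markers above 0 everywhere, 4 (Apoa1, Ttr, Fgb and Cps1) had the same order. Apoa1 had 39150, 27038 and 21388 reads in the knock-out replicates, against 14090, 49986 and 27184 in the wild-type ones. Alb and Serpina1c were highest in knock-out replicate 2 and wild-type replicate 2. Cyp2e1 went the other way and was lowest in knock-out replicate 1 and wild-type replicate 2. It had 6229, 12010 and 10321 reads in the knock-out replicates, against 14254, 6121 and 7298 in the wild-type ones. The summed RPKM of the 9 listed markers was 27037, 34583 and 21406 in knock-out replicates 1, 2 and 3 and 18473, 40681 and 17532 in wild-type. Most of this sum was Alb, at 23413, 31593 and 18937 RPKM in the knock-out replicates, against 16508, 35550 and 15024 in the wild-type ones. The sum was thus highest in wild-type replicate 2 and knock-out replicate 2, as Alb was, and does not describe the list as a whole. Tat was at 0 in all 6 libraries. Their part in the members' order was not tested. Leukocyte markers gave no such order. T and NK cell markers summed to 0.069 RPKM in knock-out replicate 1 and 0 in the others, with 9 of 10 genes at 0 in all 6 libraries. Of the 5 B cell markers 4 were at 0 throughout, and of the 6 stellate cell markers all 6. Endothelial markers summed to 53.5 RPKM in wild-type replicate 1 and to 1.06 to 9.92 in the others. Biliary markers, mostly Spp1, summed to 509.9 RPKM in knock-out replicate 2, 9.09 in knock-out replicate 1 and 123.5 to 353.1 in the others. Dendritic cell markers reached at most 8.96 RPKM. The part of these cells in the members' values was not tested.

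Most genes of the interferon response lists shared the order. Of 26 type I response genes, 22 were tested and above 0 in at least 2 libraries, and 17 of these (77.3%) were highest in RPM in knock-out replicate 1 and wild-type replicate 2. Of 15 such type II response genes 13 (86.7%) were. In RPKM the counts were 16 and 12, beside 6.99% of all such genes. Isg15, which defines the order, is on the type I list and so is counted among the 17 and the 16 by definition. Of the type I genes with the highest mean RPKM, Usp18, which removes ISG15 from proteins, had 10806, 992 and 1858 reads in the knock-out replicates, against 1492, 10756 and 3062 in the wild-type ones. Oasl1, an oligoadenylate synthetase-like protein, had 21272, 1286 and 2294 in the knock-out replicates, against 10972, 21810 and 3246 in the wild-type ones. Bst2, a surface protein that tethers virus particles, had 10006, 7968 and 8194 reads in the knock-out replicates, against 0, 11724 and 9988 in the wild-type ones. It shared the order in reads but not in RPM or RPKM. In RPM, wild-type replicate 3 (355.0) lay just above knock-out replicate 1 (354.3). Of the type II genes, Irgm1, an interferon-induced GTPase, had 16246, 4854 and 6614 in the knock-out replicates, against 0, 20276 and 8892 in the wild-type ones. In estimated reads the highest library was 10.9 times the lowest above 0 for Usp18 and 4.18 times for Irgm1, beside 4.4 times for Tap1. In RPKM these ranges were 28.0, 5.11 and 4.31 times. The 10 type I genes above 0 everywhere, Isg15 among them, had a median log2 difference of -0.55, beside 0.001 for the 5538 such genes. The interferon ligand genes were at 0 in all 6 libraries for 9 of 10, and Ifnk was below 0.5 RPKM in each. Neither response list had a gene past the test in either direction (0 of 25 and 0 of 16 tested), beside 0.789% of all tested genes.

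Psmb9, Tap1, Psmb8 and Tap2 lie next to each other within 34.33 kb of the MHC region on chromosome 17. Their zeros coincided in part. In knock-out replicate 2 Tap1 had 2566 reads while Psmb9, Psmb8 and Tap2 were at 0. In wild-type replicate 3 Psmb9 had 734 reads while the other 3 were at 0. In knock-out replicate 3 the reverse held for Tap1, at 0 between neighbours with 616 and 1932 reads.

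Antisense genes overlap this stretch and were read in all 6 libraries. Gm15821 (chromosome 17 from 34211312 to 34214459, minus strand, inside Tap2) had 174, 124 and 106 estimated reads across the knock-out replicates, against 84, 180 and 112 in the wild-type ones. Of its 1210 exonic bases, 533 (44.0%) are also exonic in Tap2 on the other strand. It thus had 124, 84 and 112 reads in the libraries where Tap2 was listed at 0. Gm20496 (34199316 to 34205449, minus strand), of whose 663 exonic bases 498 (75.1%) are exonic in Psmb8 and 165 (24.9%) in Tap2, had 214, 150 and 146 reads in the knock-out replicates, against 98, 234 and 132 in the wild-type ones. Both were highest in knock-out replicate 1 and wild-type replicate 2 in RPM. The sources used here do not say whether the counting used strand. Without strand, the reads of Tap2 and Gm15821, and of Psmb8 and Gm20496, cannot be told apart. These antisense genes were chosen after their values were seen.

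**Figure D3:**
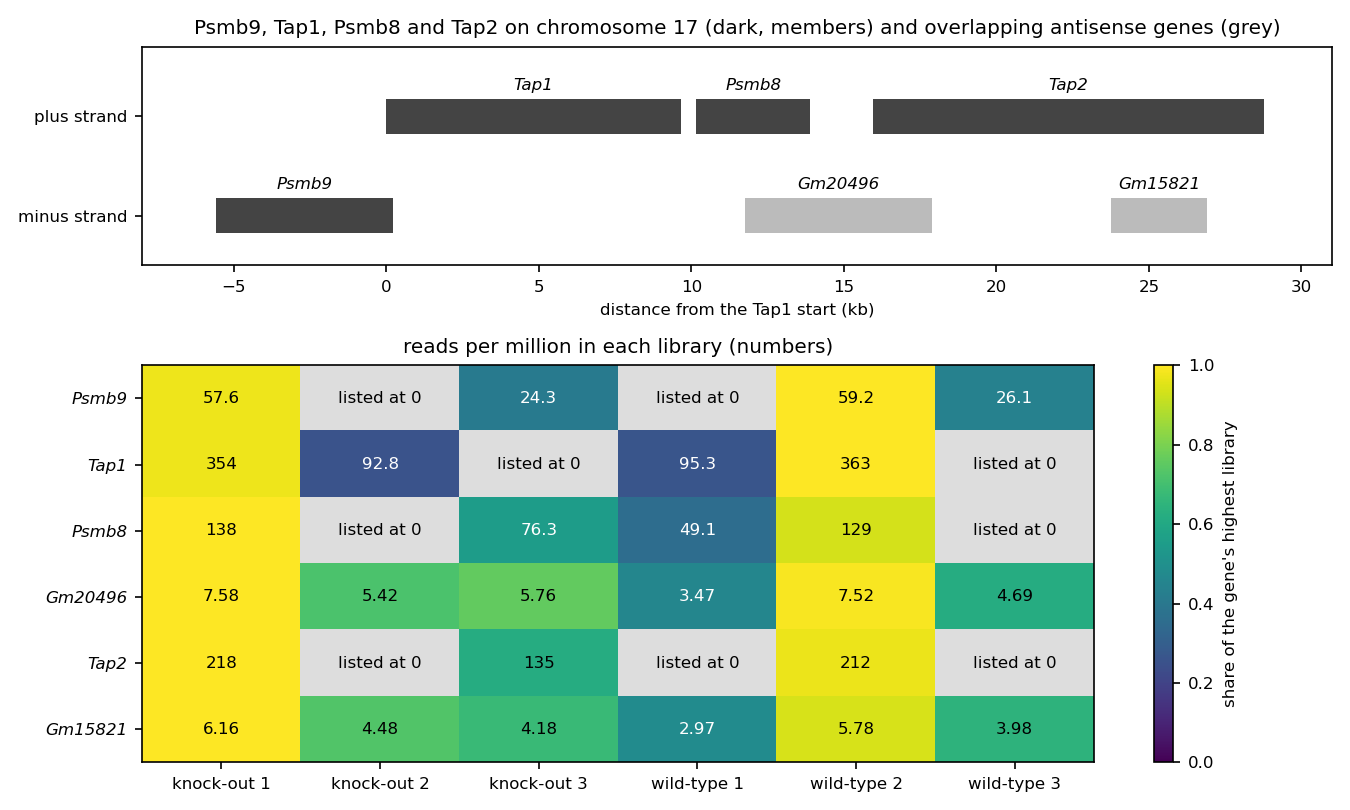
Gene bodies of Psmb9, Tap1, Psmb8 and Tap2 and of the antisense genes by distance from the Tap1 start in kb (top), and RPM of each in the 6 libraries (bottom, coloured by the share of the gene's highest library, grey where listed at 0). Knock-out replicate 1 and wild-type replicate 2 are highest in all 6 rows, and the antisense genes have reads in libraries where Tap2 or Psmb8 is listed at 0.

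The transcripts to which reads were assigned changed from library to library. The members have 65 annotated transcripts, of which 25 had reads in any library: 11 are protein coding and 14 retained introns in GENCODE M21. For 8 of the 10 members the set of transcripts with reads differed between libraries, the exceptions being B2m and Tap2. All reads of Tap2 were assigned to ENSMUST00000127543, a retained-intron transcript. Tap1 reads went to the protein-coding ENSMUST00000170086 in knock-out replicates 1 and 2 and to the retained-intron ENSMUST00000168351 in wild-type replicate 1. In wild-type replicate 2 Tap1 was split between ENSMUST00000168351 and ENSMUST00000041633, with 41.25% on the protein-coding one. In wild-type replicate 1 all 2090 reads of Psme1 went to a retained-intron transcript, whereas 57.13% to 88.33% went to the protein-coding one in the other 5 libraries. The RPKM of these genes therefore moves with the length of the chosen transcript. Whether their estimated reads also depend on that choice was not tested.

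**Figure D4:**
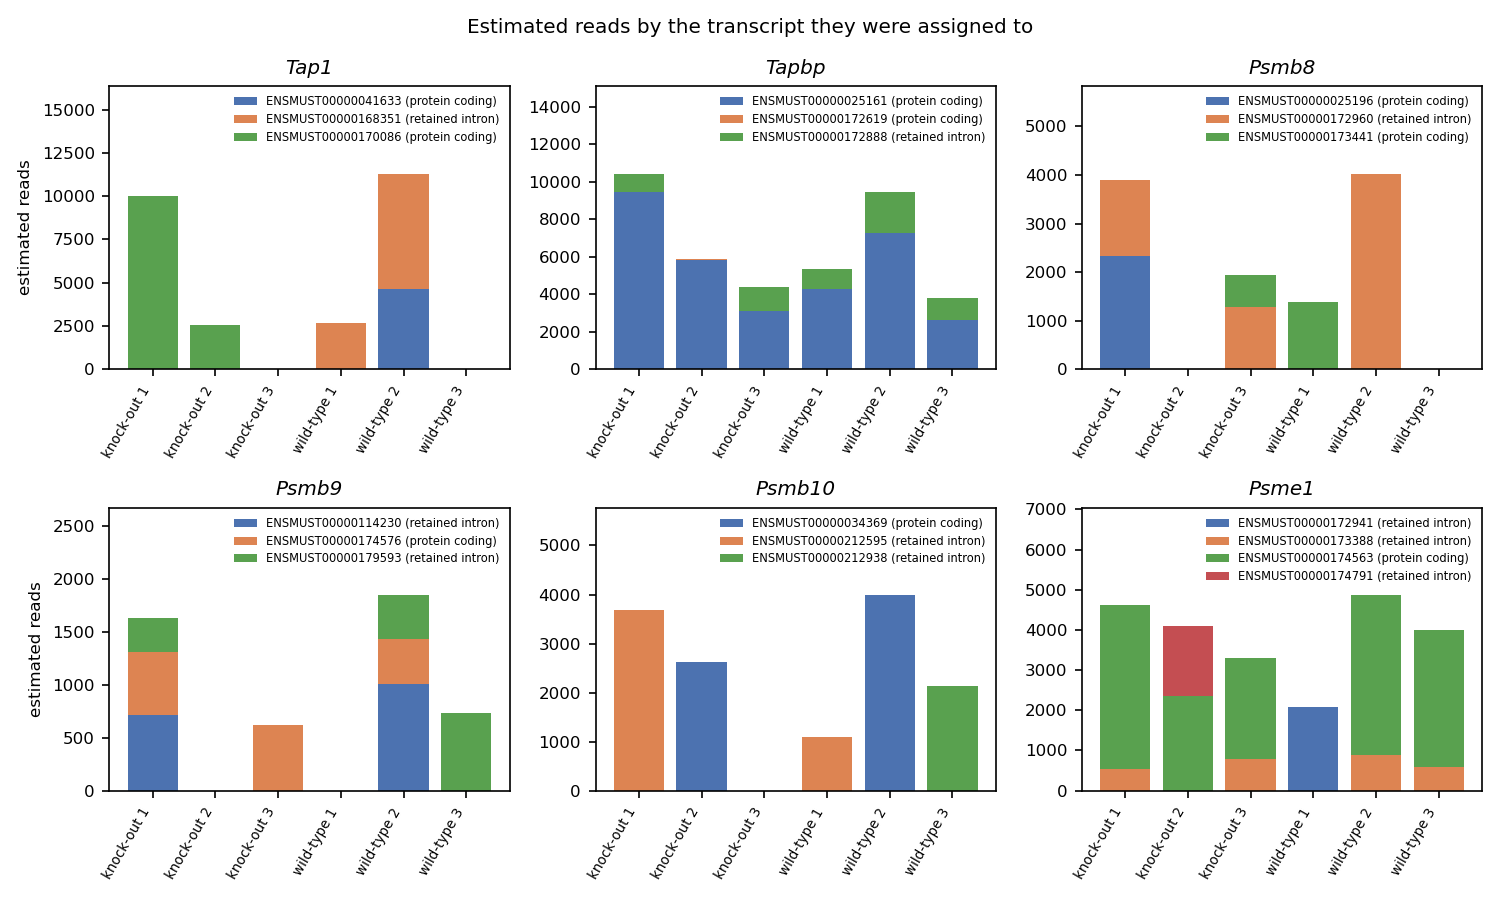
Estimated reads (vertical axis) of Tap1, Tapbp, Psmb8, Psmb9, Psmb10 and Psme1 in each library, stacked by the transcript they were assigned to, with its GENCODE M21 type in the key. Tap1 in knock-out replicate 1 (10000 reads) and wild-type replicate 2 (11292 reads) had similar totals on different transcripts.

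Immunoproteasome subunits were compared with the constitutive subunits they replace, as ratios of RPKM within a library, which do not depend on the library total. Psmb10 to Psmb7, its constitutive counterpart, was 0.810 and 0.472 in knock-out replicates 1 and 2 and 0.269, 0.720 and 0.607 in wild-type replicates 1, 2 and 3. Psmb9 to Psmb6 was 0.166 and 0.0656 in knock-out replicates 1 and 3 and 0.174 and 0.1196 in wild-type replicates 2 and 3. Psmb8 to Psmb5 could be formed in wild-type replicates 1 and 2 only, at 0.237 and 0.319. In every library where they could be formed these ratios were below 1, and each was highest in a library that was highest in Isg15.

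The alpha subunit of PA28 was set against Psme3, the gene of the related nuclear activator PA28 gamma. Psme1 to Psme3 was 4.84, 3.09 and 3.48 in the knock-out replicates, against 1.54, 5.06 and 3.95 in the wild-type ones. Knock-out replicate 1 and wild-type replicate 2 were highest and wild-type replicate 1 lowest. The means were 3.81 ± 0.92 in the knock-out replicates, against 3.52 ± 1.8 in the wild-type ones (SD, n = 3 each; exact permutation p = 1.0), and the difference of 0.289 became -0.701 without wild-type replicate 1 and 1.06 without wild-type replicate 2. Psme3 itself varied by 1.22 times between libraries in RPKM, and Psmb7 by 1.39 times. Of a list of 19 genes of the constitutive proteasome, its assembly factors and its activators, which includes these 4 counterparts, none (0) had the order of Isg15 in RPM and 1 had it in RPKM. Of the 19, 1 passed limma higher in knock-out (Psmb2) and 1 lower (Psma5), beside 0.789% of all tested genes. Each had exact zeros in all 3 libraries of the other group, so with such zeros taken as missing neither could be tested. These 2 were named after their values were seen.

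The classical heavy chains, which bind the peptide, had narrow ranges in RPM and wider ones in RPKM. H2-K1 had 53007, 54884 and 46187 estimated reads across the knock-out replicates, against 52095, 59377 and 50639 in the wild-type ones. H2-D1 had 48776, 49371 and 44406 in the knock-out replicates, against 52647, 53347 and 49409 in the wild-type ones. In RPM the highest library was 1.102 times the lowest for H2-K1 and 1.087 times for H2-D1, beside 1.13 times for B2m, and 0.451%, 0.235% and 1.17% of the genes had a smaller range. The reads of H2-D1 were lower in each knock-out library than in each wild-type one, as for B2m and for 12.9% of the genes. In RPKM their ranges were 1.79 and 1.68 times, beside 1.09 times for B2m, and reads were assigned to different transcripts in different libraries. The limma difference was 0.25 for H2-K1 (SE 0.24, adjusted p = 0.943), and -3.59 on its transcript with the highest mean. For H2-D1 it was 0.09 (SE 0.24, adjusted p = 1.0), and -0.02 in RPM. Reads of class I heavy chains are uncertain between genes, since these paralogs are near-identical over long stretches.

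Non-classical heavy chains were split. Of 14 tested heavy chain genes above 0 in at least 2 libraries, 5 (35.7%) had the order of Isg15 in RPM: H2-Q4, H2-Q6, H2-Q7, H2-T22 and H2-T24. In RPKM 3 (21.4%) had it, namely H2-Q4, H2-T24 and the classical H2-D1, and H2-Q6, H2-Q7 and H2-T22 were not among them. H2-Q4 had 12367, 8429 and 7089 reads in the knock-out replicates, against 7966, 13177 and 7009 in the wild-type ones. H2-T23, the ligand of NKG2A receptors, measured 229.9 ± 83 RPKM in the knock-out replicates, against 158.2 ± 35.6 in the wild-type ones (SD, n = 3 each; limma adjusted p = 0.941), a difference of 0.51 that was -2.66 on its transcript with the highest mean. H2-Q10, a secreted liver class I molecule, had 10916, 13184 and 9577 reads in the knock-out replicates, against 7926, 17318 and 6558 in the wild-type ones. H2-M3 lay at 4.35 to 8.56 RPKM. H2-Q1 was above 0 in 5 libraries, H2-Q2 in 2 and Mr1 in 1. Fcgrt, the neonatal Fc receptor chain that also binds B2m, had 0, 2402 and 0 reads in the knock-out replicates, against 1468, 0 and 2054 in the wild-type ones. Cd1d1 was the 1 heavy chain gene of the list past the test (limma adjusted p = 0.00403), beside 0.789% of all tested genes. It had 1486, 2142 and 1752 reads in the knock-out replicates, against 0 in each wild-type library. At a locus of 5 transcripts those zeros may be estimates not made, and with such zeros taken as missing Cd1d1 could not be tested. The median log2 difference of the 9 heavy chain genes above 0 everywhere was 0.13.

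The loading factors did not share one order. Tapbpl, a tapasin relative that edits peptides, had 1442, 924 and 802 estimated reads across the knock-out replicates, against 558, 1564 and 868 in the wild-type ones. Erap1, which trims peptides in the endoplasmic reticulum, had 3018, 2730 and 2660 in the knock-out replicates, against 1804, 3312 and 2842 in the wild-type ones. Both lie at loci with 1 transcript, so their values are free of the choice of transcript, and both had the order of Isg15. They did so with ranges of 2.59 and 1.67 times in RPM. The general chaperones Canx, Calr, Pdia3 and Hspa5 were highest in knock-out replicate 2 and wild-type replicate 3 in RPM instead. Lnpep, which trims peptides in endosomes, lay between 9.76 and 14.1 RPKM. None of the 7 loading genes (0) passed limma, beside 0.789% of all tested genes, and their median difference was 0.21. Tapbpl and Erap1 were lowest in wild-type replicate 1, as Psme1 was.

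Regulators of the pathway included transducers of interferon signals. Stat2, a subunit of the type I interferon transcription factor ISGF3, had 7960, 3188 and 4150 reads in the knock-out replicates, against 3838, 8044 and 4934 in the wild-type ones. Irf1 had 3224, 0 and 1408 in the knock-out replicates, against 0, 2835 and 0 in the wild-type ones, and Irf2 3178, 0 and 2050 in the knock-out replicates, against 0, 3242 and 0 in the wild-type ones. All 3 had the order of Isg15, as did Rfx5, of the RFX complex that binds class I promoters. Rfx5 had 1364, 1110 and 1000 reads in the knock-out replicates, against 787, 1346 and 970 in the wild-type ones. The other RFX subunits Rfxap and Rfxank lay at 6.76 to 10.5 and 22.97 to 25.3 RPKM. Tyk2 lay at 11.2 to 14.6 RPKM.

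Of the remaining regulators reported here, all but Ifnar1 had zeros in both groups or hardly any reads. Irf9, the DNA-binding subunit of ISGF3, had 0 reads in knock-out replicate 2 and wild-type replicate 2. Jak1, Jak2, Ifngr1, Ifngr2 and Ifnar2 were at 0 in 2 to 5 libraries. Ciita, the class II transactivator, had at most 4 reads, and Socs1, a feedback inhibitor, 4 to 22. Ifnar1, a receptor chain for type I interferon, was the 1 regulator past the test (limma adjusted p = 0.000288), with 6452, 5996 and 6040 reads in wild-type and exact zeros in every knock-out library. Its locus has 5 transcripts, and with such zeros taken as missing it could not be tested and limma called 0 genes in all. Of 15 tested regulators 1 passed lower in knock-out and 0 higher, beside 0.789% of all tested genes past the test. The 5 regulators above 0 everywhere had a median log2 difference of 0.09.

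**Figure D5:**
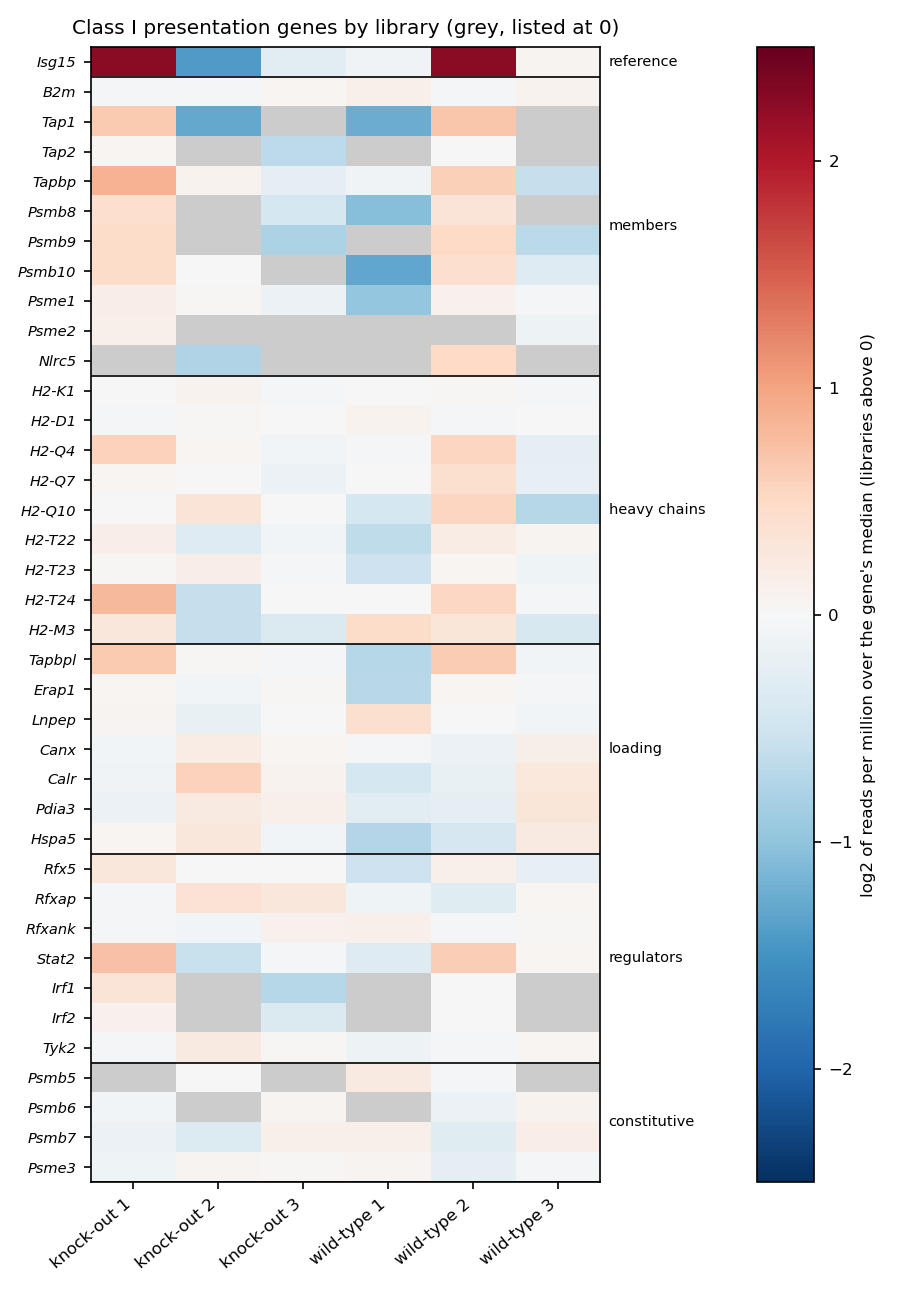
Log2 of RPM over the gene's median in libraries above 0 (colour) for Isg15, the members, heavy chains, loading factors, regulators and constitutive subunits (rows) in the 6 libraries (columns), grey where listed at 0. Knock-out replicate 1 and wild-type replicate 2 are red for Isg15, Tap1, Tapbp, Tapbpl and Stat2, and near white for B2m, H2-K1 and H2-D1.

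Some class II genes were highest in the library with macrophage RNA. The 9 genes of the list summed to 251.1 RPKM in wild-type replicate 1 and to 17.1 to 41.8 in the other 5 libraries. Of the 9, 4 were listed at 0 in all 6 libraries, and Ctss was read in knock-out replicate 2 only. Cd74, the invariant chain, stood at 146.2 RPKM in wild-type replicate 1 and was listed at 0 in the others. Its locus has 4 transcripts, so those zeros can be estimates that were not made. Ifi30, at a locus with 1 transcript, had 61.0 RPKM in wild-type replicate 1 and 16.5 to 30.1 in the others. Among the members, B2m was highest in that library, with 32732 reads, and the others were not. In wild-type replicate 1 Tap2, Psmb9, Psme2 and Nlrc5 were at 0, and Psme1, Psmb8 and Psmb10 had their lowest reads above 0. The part of the macrophage RNA in these values was not tested.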

How the data were processed

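Polyadenylated RNA of 3 Bim knock-out and 3 wild-type hepatocyte samples was sequenced single-end, per the labels. Per the submitters' processing notes, TopHat2 (version 2) and the GRCm38 (mm10) build were used. How reads were shared out between transcripts is not stated in those sources. The deposited files give an estimated read count and RPKM for each of 118492 transcripts. The authors' RPKM follows from the reads, the transcript length and a library total of 19245556 to 21899881 reads, computed from the values. Locus totals were whole (within 0.001) for 99.46% to 99.66% of loci above 0, and 92.28% to 92.98% of these were even. Of the gene identifiers 47993 matched a symbol and 360 did not.

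RPKM and reads were summed per gene. Genes whose mean reached 1 RPKM were tested on log2(RPKM + 1) with limma 3.58.1 in R 4.3.3 (mean-variance trend, two-sided, all 6 libraries, no covariate), which understates the change of low genes, with Benjamini-Hochberg adjustment over all tested genes and a threshold of 0.05. RPM is the reads of a gene over the sum of the reads in the file. Single values of 3 against 3 libraries had an exact two-sided permutation test, with 0.1 the smallest p. The fit was tested on simulated data. Promoters came from RefSeq. Python 3.11.15 with scipy 1.17.1, numpy 2.4.6, pandas 2.3.3 and matplotlib 3.10.9 made the tables and figures.

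The members and lists were chosen with earlier results of these data known. Named were the members, Isg15, the constitutive counterparts and the genes of 3 lists (heavy chains, loading, regulators), and of other lists up to 4 genes with the highest mean RPKM. Fgb, Cps1, Tat, Apoc3, Cyp2e1, Psmb2, Psma5 and the antisense genes fall outside this rule and were named after their values were seen. H2-L had no entry by that symbol. One regulator of the list is not reported here. Alternatives covered pseudocount, filter, scaling, unit, transcript choice, variance model, replicate block, threshold and left-out libraries. Those on exact zeros and on leaving out both libraries highest in Isg15 were chosen after seeing the data.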

Additional observations from a re-analysis of the deposited data

How the results depend on the processing

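No member was called (0 of 10) in any of the 20 alternatives. The 87 calls over all genes became 182 to 207 with 1 library left out and 312 without both libraries highest in Isg15. They became 0 with the replicate block, 0 among genes above 0 in all 6 libraries and 0 when exact zeros at multi-transcript loci counted as missing. The last 2 of these leave out or blank genes with zeros, and the cause of the others was not tested. Same-numbered libraries did not deviate together (r = -0.16, -0.05 and -0.01 over 5538 genes). With 3 libraries in each group, this check cannot decide whether the numbers pair the samples. Among genes above 0 everywhere 0 were called in each of the 9 alternatives run.

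B2m kept its direction in all 20 alternatives (-0.12 to -0.07 with 1 library left out). The Tapbp difference turned to 0.27 in RPM, 0.27 with voom and 0.45 on the transcript with the highest mean, and ran from -0.37 to 0.21 with 1 library left out. That of H2-D1 was -0.018 in RPM, -0.016 with voom, -0.076 on that transcript and -0.036 without both libraries highest in Isg15, and -0.14 to 0.23 with 1 left out. On that transcript H2-K1 was -3.59 and H2-T23 -2.66. With 1 library left out the ranges crossed 0 for Psme1 (-0.16 to 0.58), Isg15 (-1.60 to 0.22), Erap1 (-0.030 to 0.36), Tapbpl (-0.084 to 0.59) and Stat2 (-0.43 to 0.20). The Psme1 to Psme3 difference, 0.29, ran from -0.70 to 1.06.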
